A study of Mus musculus with 16 samples.

Results

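Transcription factors that build and maintain the hepatocyte lineage were followed in primary mouse hepatocytes given itaconate, a lipid mixture or both. The 8 genes were taken by name: Hnf4a, Foxa1, Foxa2, Foxa3, Cebpa, Cebpb, Onecut1 and Prox1, out of 55450 genes in the count table and 11675 genes tested. Cells came from wild-type livers, and the study's methods give male C57BL/6J mice of 8 to 12 weeks. All cultures were kept overnight in DMEM with 5% FBS and insulin, transferrin and selenium. Untreated cells had no further addition, itaconate cells had 10 mM sodium itaconate, lipid cells had a chemically defined mixture of fatty acids and cholesterol diluted 10-fold, and lipid + itaconate cells had both. Each group had 4 stranded mRNA libraries, lettered A to D, and 16 libraries were sequenced in all.

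Hepatocyte identity is held by a network of transcription factors that bind their own and each other's regulatory regions. HNF4A is a nuclear receptor required for most liver-specific expression, the FOXA forkhead proteins open chromatin early in liver development, and the C/EBP proteins drive metabolic genes and the acute phase response. ONECUT1 acts in hepatoblast and bile duct development, and PROX1 is a homeobox protein needed for hepatoblast migration that also represses HNF4A activity and specifies lymphatic endothelium.

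The libraries held 22346049 to 35512004 expected counts, with a median of 27719372. Libraries that shared a letter deviated together from their group means, so the letter was a block in every fit. Library B of the lipid + itaconate group stood apart, with a chi-square per gene of 106 to 147 against the other libraries of its group, where every other pair of libraries within a group reached at most 64.5. For the 8 genes, counts and called values of comparisons that use this group are therefore also given without it. Library C of the same group had the highest mitochondrial share of counts, 6.01%, where the other 15 libraries had 3.27% to 4.97%. Nothing in the labels says that the 4 libraries of a group came from separate animals, so the p-values measure only the spread between these samples. Because RNA was taken from whole cultures, fewer cells of a type and less RNA per cell cannot be told apart.

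All 8 genes passed the filter, a mean of 1 CPM or more (CPM are counts scaled to a common library size). On GRCm38 they lie at chr2:163506808-163572910 (Hnf4a), chr12:57540628-57546916 (Foxa1), chr2:148042877-148046969 (Foxa2), chr7:19013284-19023538 (Foxa3), chr7:35119293-35121928 (Cebpa), chr2:167688915-167690418 (Cebpb), chr9:74861921-74891781 (Onecut1) and chr1:190118035-190170714 (Prox1). Levels between genes were compared as CPM per kilobase of merged exon. In untreated cells Cebpb stood highest at 165 ± 22.3 (SD, n = 4), followed by Cebpa at 50.5 ± 3.37 and Hnf4a at 44.4 ± 3.39 CPM per kilobase. Foxa3 reached 17.4 ± 1.77, Foxa2 8.47 ± 1.19 and Foxa1 4.27 ± 0.603 CPM per kilobase, so the 3 FOXA genes were ordered with Foxa3 first. Prox1 at 3.39 ± 0.633 overlapped Foxa1 across libraries, and no other neighbours in this order overlapped. Onecut1 was lowest at 0.363 ± 0.0677 CPM per kilobase, resting on 15 to 53 counts per library over the 16 libraries. With lipid, Prox1 moved ahead of Foxa1 in mean level, but their libraries overlapped there too, and Cebpa and Hnf4a also overlapped in the lipid group.

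**Figure D1:**
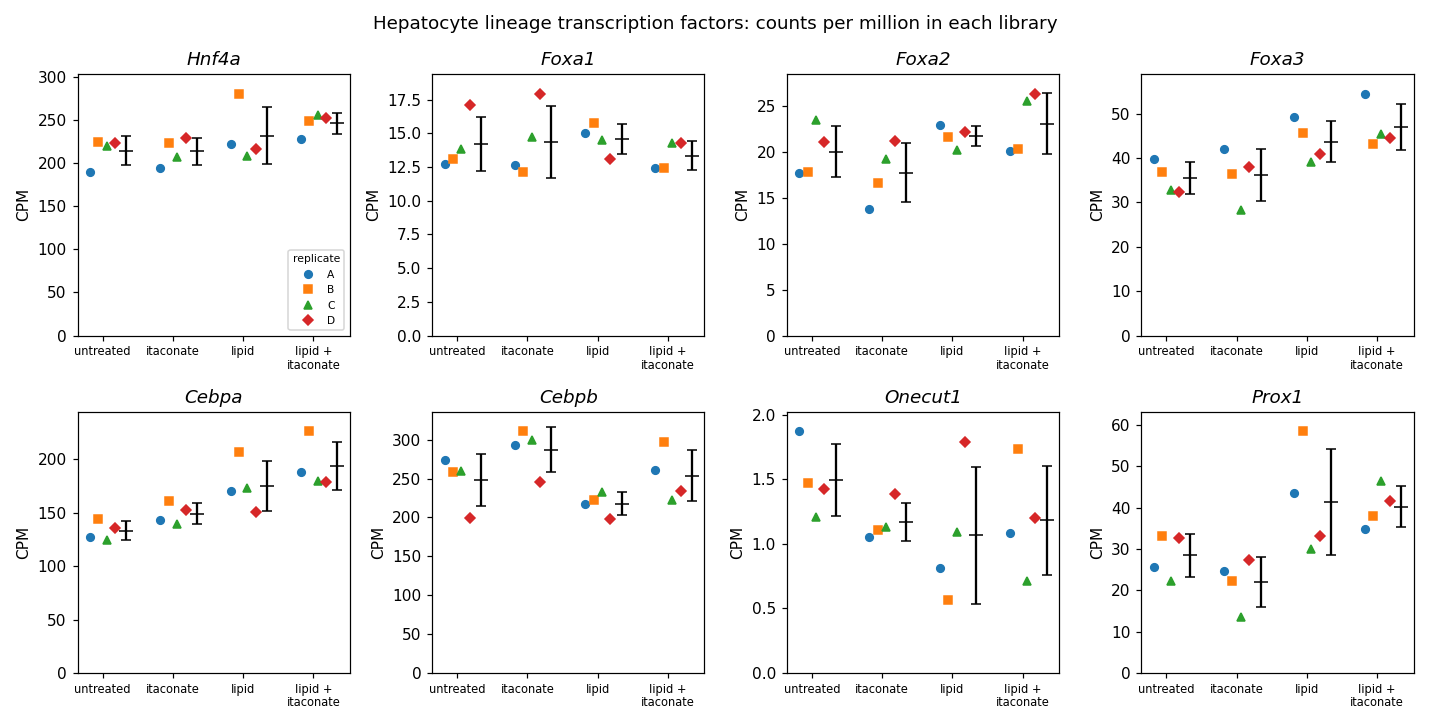
CPM (y axis, linear, from 0) of the 8 genes in each library by group (x axis), with symbols for replicate letters and black bars for mean ± SD of 4 libraries. Cebpa lies at 124 to 144 CPM in untreated cells and at 150.4 to 207 CPM with lipid.

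The first question was what the lipid mixture did in cells without itaconate. Cebpa, Foxa3 and Prox1 rose and Cebpb fell, which is 4 of 8 genes by edgeR's quasi-likelihood test with Benjamini-Hochberg adjustment over all genes, at a threshold of 0.05. Of all 11675 genes tested, 47.5% were called in this comparison, so the share among the 8 is near the background.

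Cebpa encodes C/EBPα, a driver of hepatocyte metabolic genes. Untreated libraries A to D gave 128, 144, 124 and 136 CPM of Cebpa. The lipid libraries gave 171, 207, 173 and 150.4 CPM of Cebpa. Every lipid library lay above every untreated library. The log2 fold change was 0.39 (SE 0.0556), with an adjusted p of 3.98e-05 by edgeR's quasi-likelihood test, and it passed under all 22 alternatives, with adjusted p up to 0.00319.

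Foxa3 encodes a forkhead factor that is the most abundant of its family in adult liver. Its untreated libraries gave 39.8, 36.9, 32.7 and 32.3 CPM, and its lipid libraries 49.3, 45.7, 39.1 and 40.9 CPM. Each letter was higher with lipid, although the lowest lipid library lay below the highest untreated one. The log2 fold change of Foxa3 was 0.30 (SE 0.0673, adjusted p 0.00175 by edgeR's quasi-likelihood test), and the call held under all 22 alternatives, with adjusted p up to 0.0434.

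Prox1 gave 25.7, 33.1, 22.3 and 32.6 CPM in untreated libraries A to D and 43.4, 58.5, 30.0 and 33.2 CPM in the lipid libraries. All 4 letters were higher with lipid, and the ranges overlapped. Its log2 fold change was 0.53 (SE 0.181, adjusted p 0.0252 by edgeR's quasi-likelihood test). The call ended without the replicate block (adjusted p 0.0571) and when 1 of 5 libraries was left out: untreated A (0.0732), B (0.0508) or C (0.0706), or lipid A (0.0698) or B (0.141). Without lipid B its log2 fold change was 0.34. Over all alternatives the adjusted p of Prox1 ran from 5.34e-13 to 0.141.

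Cebpb encodes C/EBPβ, which responds to inflammatory and hormonal signals. Untreated libraries gave 274, 258, 260.0 and 199 CPM of Cebpb, and lipid libraries 218, 223, 232 and 197 CPM. All 4 letters were lower with lipid, letter D least, and the ranges overlapped. Cebpb fell by 0.18 on the log2 scale (SE 0.0674, adjusted p 0.0374 by edgeR's quasi-likelihood test). This call ended without the replicate block (adjusted p 0.173) and without untreated A (0.151) or C (0.121), lipid A (0.117) or B (0.125), or itaconate B (0.0503), within a range of 0.00526 to 0.173.

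The other 4 genes were not called for lipid without itaconate. Hnf4a had a log2 fold change of 0.11 (95% interval -0.03 to 0.24), Foxa2 of 0.13 (-0.07 to 0.34) and Foxa1 of 0.05 (-0.18 to 0.28). Onecut1 had a log2 fold change of -0.49 with an interval of -1.12 to 0.15, which its low counts leave wide. With 1 library left out, Hnf4a ran from 0.03 (without lipid B) to 0.16 (without lipid C), and Foxa2 from 0.03 (without lipid A) to 0.22 (without lipid C). Foxa1 ran from -0.04 (without lipid B) to 0.18 (without lipid D), and Onecut1 from -0.81 (without lipid D) to -0.21 (without lipid B).

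In itaconate-treated cells, the lipid mixture went with higher Prox1, Foxa3, Foxa2, Cebpa and Hnf4a and lower Cebpb, 6 of 8 genes, where 47.0% of all genes were called. The same 6 were called without lipid + itaconate library B, where 45.3% of all genes were.

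Prox1 had the largest log2 fold change of the 8 in this comparison. Itaconate libraries A to D gave 24.6, 22.2, 13.6 and 27.4 CPM of Prox1, and lipid + itaconate libraries gave 34.8, 38.1, 46.5 and 41.7 CPM. No library of one group overlapped the other. Its log2 fold change was 0.91 (SE 0.183, adjusted p 0.000936 by edgeR's quasi-likelihood test), and 1.02 without lipid + itaconate library B.

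Foxa2, a forkhead factor of fasting metabolism, gave 13.8, 16.6, 19.3 and 21.2 CPM with itaconate and 20.2, 20.3, 25.6 and 26.4 CPM with lipid + itaconate. All 4 letters were higher with lipid, and the ranges overlapped. Its log2 fold change was 0.38 (SE 0.0958, adjusted p 0.00413 by edgeR's quasi-likelihood test), and 0.41 without library B.

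Foxa3 gave 42.1, 36.3, 28.3 and 38.1 CPM with itaconate and 54.6, 43.1, 45.5 and 44.5 CPM with both, so the groups did not overlap. Its log2 fold change was 0.38 (SE 0.0664, adjusted p 0.000306 by edgeR's quasi-likelihood test), and 0.43 without library B. Cebpa gave 143, 161, 139.7 and 153 CPM with itaconate and 188, 227, 179.9 and 179 CPM with both. These groups also did not overlap, and the log2 fold change of Cebpa was 0.37 (SE 0.0553, adjusted p 7.82e-05 by the same edgeR test) and 0.34 without library B, the library with most Cebpa in its group.

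Hnf4a gave 194, 223, 207 and 229 CPM with itaconate and 228, 249, 255 and 252 CPM with lipid + itaconate. Each letter was higher with lipid, and the ranges overlapped. Its log2 fold change was 0.21 (SE 0.0636, adjusted p 0.0143 by edgeR's quasi-likelihood test) and 0.25 without library B. The call of Hnf4a ended without the replicate block (adjusted p 0.0751) and without itaconate B (0.0593), within a range of 0.000533 to 0.0751.

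Cebpb gave 293, 311, 299 and 245 CPM with itaconate and 261, 297, 222 and 234 CPM with both. All 4 letters were lower with lipid, and Cebpb fell by 0.18 on the log2 scale (SE 0.0671, adjusted p 0.0391 by edgeR's quasi-likelihood test). The change was -0.23 without lipid + itaconate library B and -0.10 without library C of that group (adjusted p 0.156). The call also ended without the replicate block (0.195), without itaconate A (0.0524), B (0.0693), C (0.112) or D (0.0591), or without lipid + itaconate A (0.072). Foxa1 (log2 fold change -0.10, interval -0.32 to 0.12) and Onecut1 (0.00, -0.63 to 0.64) were not called. Over all alternatives Foxa1 ran from -0.17 to -0.0074.

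**Figure D2:**
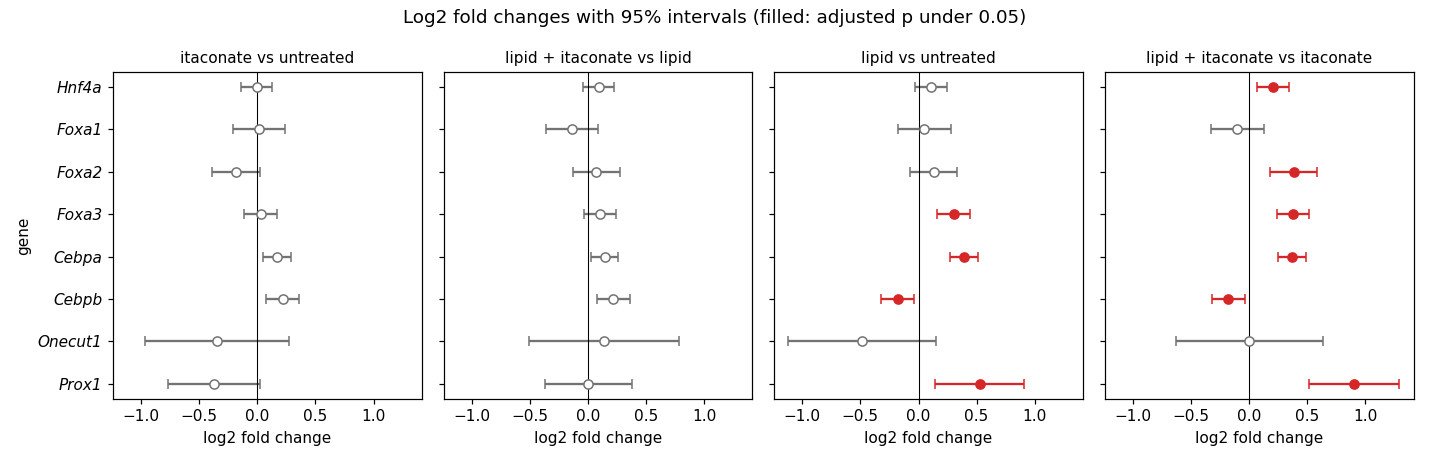
Log2 fold change (x axis) with 95% interval of each gene (y axis) in 4 comparisons, where filled points have an adjusted p under 0.05. No point is filled in the itaconate comparisons, 4 are filled for lipid vs untreated and 6 for lipid + itaconate vs itaconate.

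Itaconate was then compared with no itaconate, first in cells without lipid. None of the 8 genes was called by edgeR's quasi-likelihood test, where 4.91% of all genes were. An unadjusted p under 0.05 was found for 2 of the 8 and 21.3% of all genes, and DESeq2 called 1 of the 8, Cebpb, and 6.78% of all genes. Cebpb was higher with itaconate in all 4 letters, with a log2 fold change of 0.22 (SE 0.0671, 95% interval 0.07 to 0.36, adjusted p 0.0751 by edgeR). Cebpa was also higher in all 4 letters, at 0.17 (SE 0.0556, 0.05 to 0.29, adjusted p 0.0956 by edgeR). Prox1 had a log2 fold change of -0.37 (-0.77 to 0.02) and was lower in all 4 letters, Foxa2 of -0.18 and Onecut1 of -0.35, while Hnf4a, Foxa1 and Foxa3 lay between -0.01 and 0.03. Over all alternatives Prox1 ran from -0.51 to -0.24, Foxa2 from -0.24 to -0.10 and Onecut1 from -0.50 to -0.17.

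These calls moved with the model. With no filter on low counts, or with the lipid groups left out of the model, Cebpa, Cebpb and Prox1 were all called, 3 of 8, where 4.34% and 16.0% of all genes were called in these models. The count over all genes, 573, was 149 without itaconate C and 1047 without lipid + itaconate C. Cebpb was also called without lipid + itaconate B (adjusted p 0.0457) or C (0.0102), and Cebpa without lipid D (0.0462). Over all alternatives the adjusted p of Cebpb ran from 0.00104 to 0.404, of Cebpa from 0.00325 to 0.466 and of Prox1 from 3.96e-05 to 0.61.

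In lipid-loaded cells itaconate again gave no call among the 8 by edgeR's quasi-likelihood test, where 2.58% of all genes were called. An unadjusted p under 0.05 was found for 2 of the 8 and 17.3% of all genes, and DESeq2 called Cebpb alone of the 8 and 4.36% of all genes. Cebpb had a log2 fold change of 0.22 (SE 0.0673, adjusted p 0.0954 by edgeR) and was higher in 3 of 4 letters. It was 0.16 without lipid + itaconate library B and 0.30 without library C, where it was called (adjusted p 0.00415, within a range of 0.00237 to 0.503). The count over all genes, 301, was 59 without lipid + itaconate A, 134 without B and 889 without C. Cebpa had a log2 fold change of 0.14 (SE 0.0551, adjusted p 0.186 by edgeR), higher in 4 of 4 letters, and Prox1 one of 0.00 (-0.37 to 0.38). Without library B these were 0.12 for Cebpa (adjusted p 0.385, within a range of 0.123 to 0.65) and 0.13 for Prox1. Over all alternatives the log2 fold change of Cebpa ran from 0.08 to 0.18.

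After these comparisons had been seen, with Cebpa and Cebpb short of the threshold in both, the itaconate contrast was averaged over both lipid states, and the lipid contrast likewise. This choice followed the data and is not independent of the values above. In the averaged itaconate contrast Cebpb (log2 fold change 0.22, SE 0.0475, adjusted p 0.0085 by edgeR's quasi-likelihood test) and Cebpa (0.16, SE 0.0392, adjusted p 0.0176) were called, 2 of 8, where 12.3% of all genes were. Neither was called there without the replicate block, with an adjusted p of 0.128 for Cebpb (range over alternatives 2.12e-07 to 0.128) and 0.212 for Cebpa (0.000703 to 0.212). Without lipid + itaconate library B the log2 fold changes were 0.19 for Cebpb (adjusted p 0.0174) and 0.14 for Cebpa (0.039), the same 2 of 8, where 8.91% of all genes were called. Prox1 joined them without lipid + itaconate library C (log2 fold change -0.31, adjusted p 0.0317, range 0.00728 to 0.641). In the averaged lipid contrast Prox1 (0.72), Cebpa (0.38), Foxa3 (0.34), Foxa2 (0.26) and Hnf4a (0.16) were higher and Cebpb (-0.18) lower, 6 of 8, where 61.4% of all genes were called. Without library B the same 6 were called, at 0.77, 0.37, 0.37, 0.27, 0.18 and -0.20 in that order, where 60.8% of all genes were.

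Whether the effect of itaconate depended on lipid was tested by the interaction. None of the 8 genes was called by edgeR's quasi-likelihood test or by DESeq2, none had an unadjusted p under 0.05, where 8.60% of all genes had, and edgeR called 1 gene of 11675, 0.00857%, and DESeq2 0.308%. DESeq2 gave an adjusted p to 6695 of the 11675 genes here, and to neither Foxa1 nor Onecut1. By edgeR, Foxa2 had the lowest adjusted p of the 8, 0.629, with a log2 difference of 0.25 (-0.04 to 0.54), and Prox1 had 0.38 (-0.17 to 0.92). Without lipid + itaconate library B 7 genes were called, and the lowest adjusted p of the 8 was 0.486, for Foxa2 (log2 difference 0.28, range of adjusted p 0.436 to 1) and Prox1 (0.49). With 1 library left out, Prox1 ran from 0.15 (without lipid + itaconate C) to 0.56 (without lipid B) and Foxa2 from 0.16 (without lipid C) to 0.35 (without lipid A). Prox1 was called with no filter (adjusted p 0.0264), where 0.918% of all genes were called, within a range of 0.0264 to 1. Foxa2 and Hnf4a were thus called for lipid in itaconate-treated cells and not in cells without itaconate, but that difference did not pass its own test.

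Relatives of the 8 genes were looked at next. Of 7, 3 were tested, and all 3 fell with lipid in both comparisons, where 23.7% and 23.5% of all genes fell. Cebpd, another C/EBP gene of the acute phase, fell by 1.41 on the log2 scale without itaconate and by 1.21 with it. Cebpg fell by 0.30 and by 0.37, and Onecut2 fell by 0.25 and by 0.21. The call of Onecut2 in itaconate-treated cells ended without the replicate block (0.0747) or itaconate C (0.0561), within a range of 0.000701 to 0.0747. Cebpg rose with itaconate in cells without lipid in 4 of 4 letters, at a log2 fold change of 0.18 (adjusted p 0.0266 by edgeR's quasi-likelihood test). That call ended without the replicate block (0.191), untreated A (0.0861), untreated B (0.0859), itaconate C (0.127), untreated D (0.0668) or itaconate D (0.096), within a range of 0.00148 to 0.191. The averaged itaconate contrast called 2 of the 3, both higher, where 12.3% of all genes were called. They were Cebpg (0.15, adjusted p 0.00732 by the same edgeR test) and Onecut2 (0.20, adjusted p 0.00838). Both calls ended without the replicate block (0.0687 and 0.0926) and under no other alternative. Onecut3 was at 0 counts in all 16 libraries, and Hnf4g, Cebpe and Prox2 were below the filter. Cebpa thus rose with lipid where Cebpb, Cebpd and Cebpg fell.

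Among 25 other liver transcription factors tested, 7 rose and 4 fell with lipid without itaconate, and 5 rose and 4 fell with it (5 and 3 without library B of the lipid + itaconate group). These are 44% and 36% of the list, against 47.5% and 47.0% of all genes tested, and 45.3% without library B in itaconate-treated cells. Creb3l3, a liver factor of triglyceride metabolism, rose with lipid by 1.06 and 0.95 on the log2 scale. It was the 1 factor of the list called for itaconate in either lipid state, where it fell by 0.29 alone and fell by 0.40 in lipid-loaded cells, and both calls ended without the replicate block (0.178, within a range of 1.62e-09 to 0.178, and 0.12, within 5.26e-21 to 0.12). The averaged itaconate contrast called 3 of the 25, 12% where 12.3% of all genes were called: Creb3l3 and, named after their values were seen, Zhx2 and Tef. Creb3l3 fell by 0.34 and was called under all 21 alternatives, with adjusted p up to 0.012. Zhx2 rose by 0.14, lost without the replicate block (0.0699), within a range of 0.00557 to 0.0699. Tef rose by 0.22, a call that ended without the replicate block (0.0682), untreated A (0.0617), lipid A (0.052), lipid + itaconate A (0.0697), untreated B (0.0606), lipid B (0.0601), lipid + itaconate B (0.0597), untreated C (0.0507), itaconate C (0.0811), lipid D (0.0546) or itaconate D (0.0604), within a range of 3.2e-06 to 0.0811. Gata4, a factor of early liver development, rose with lipid by 0.65 and 0.53. Without itaconate Nfib, a nuclear factor I gene, fell by 0.22. Nr3c1, the glucocorticoid receptor, fell by 0.33 without itaconate and fell by 0.41 with it. Foxo1, a factor of the fasting response, rose by 0.36 and 0.37.

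Of 9 cofactors, 1 rose and 1 fell with lipid without itaconate (22.2%), and 1 rose and 4 fell with it (55.6%, and 1 and 3 without library B). The shares of all genes called were 47.5% and 47.0%, and 45.3% without library B in itaconate-treated cells. Hdac3, a corepressor subunit, rose by 0.33 and 0.24. Kdm1a, a histone demethylase, fell by 0.11 without itaconate, a call that ended without the replicate block (0.0611), the filter (0.225), the other groups in the model (0.0628), untreated A (0.0926), lipid A (0.148), itaconate A (0.0501), lipid B (0.075), untreated C (0.0906), lipid C (0.082) or untreated D (0.0729), and with filterByExpr (0.05), within a range of 0.016 to 0.225. Ppargc1a, which works with HNF4A in gluconeogenesis, and Crebbp, a histone acetyltransferase, fell with lipid in itaconate-treated cells, where Ppargc1a fell by 0.63 and Crebbp fell by 0.22. Ncoa1, a nuclear receptor coactivator, fell by 0.18 there, lost without the replicate block (0.242), within a range of 0.00483 to 0.242. With itaconate alone Ppargc1a rose by 0.69 and Ncoa1 by 0.18. The first call ended without the replicate block (0.0716) or itaconate C (0.0587), within a range of 0.000216 to 0.0716. The averaged itaconate contrast called 2 of the 9 cofactors, 22.2% where 12.3% of all genes were called. Ppargc1a rose by 0.51 there and was called under all 21 alternatives, with adjusted p up to 0.0245. Hdac3 fell by 0.14 there, a call that ended without the replicate block (0.106), untreated A (0.0549) or lipid + itaconate A (0.0542), within a range of 0.00752 to 0.106. The call of Ncoa1 for itaconate alone ended without the replicate block (0.549), the filter (0.0801), untreated A (0.131), itaconate A (0.0777), untreated B (0.0999), lipid B (0.0545), itaconate B (0.0884), untreated C (0.107), itaconate C (0.183), lipid D (0.053) or itaconate D (0.0639), within a range of 0.0169 to 0.549. Of 4 partners and regulators of C/EBP proteins tested, Trib3, a pseudokinase, rose with lipid by 0.39 and 0.23, the latter lost without the replicate block (0.0894), within a range of 0.000125 to 0.0894. Trib1, which directs C/EBPα to degradation, rose with itaconate alone by 0.22, a call that ended without the replicate block (0.306), itaconate A (0.0834), untreated B (0.0903), untreated C (0.0914), itaconate C (0.149), untreated D (0.0953) or itaconate D (0.0858), within a range of 0.00128 to 0.306. The averaged itaconate contrast called Trib1 alone of the 4, where 12.3% of all genes were called. It rose by 0.21 there (adjusted p 0.0035 by edgeR's quasi-likelihood test). That call ended without the replicate block (0.0893) and under no other alternative.

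Genes known as targets of the 8 factors moved in both directions. The shares called for lipid, without and with itaconate, were 53.3% and 60% of HNF4A targets, 71.4% and 57.1% of FOXA targets, 60% and 50% of C/EBP targets and 42.9% and 57.1% of ONECUT1 targets. Of all genes tested, 47.5% and 47.0% were called, and a list share near these is not a result about its genes. Without library B of the lipid + itaconate group, 45.3% of all genes were called for lipid in itaconate-treated cells. The target lists share genes, Pck1 and G6pc among them, so their shares are not separate observations. Of 15 HNF4A targets tested, 4 rose and 4 fell with lipid without itaconate, and 4 rose and 5 fell with it (3 and 6 without library B). Mttp, which loads lipid onto lipoproteins, rose by 1.04 and 0.70, and Cyp8b1, an enzyme of bile acid synthesis, by 0.60 and 0.99. Nr1i2, a xenobiotic receptor, rose by 0.55 and 0.22. Its call in itaconate-treated cells held in 4 of 22 alternatives (adjusted p 0.0236 to 0.149), those without untreated B, lipid B, lipid D or itaconate D. Otc of the urea cycle fell by 0.41 and fell by 0.40. Cyp8b1 was also called for itaconate in lipid-loaded cells (0.32, adjusted p 0.0459 by edgeR's quasi-likelihood test, higher in 4 of 4 letters). That call held in 5 of 22 alternatives (adjusted p 0.0127 to 0.595) and ended when any library but untreated C or lipid + itaconate C was left out.

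Of 7 FOXA targets tested, 2 rose and 3 fell without itaconate, and 1 rose and 3 fell with it (1 and 4 without library B). Pck1 of gluconeogenesis fell by 0.61 and fell by 0.88, the first lost without the replicate block (0.0824), within a range of 2.92e-14 to 0.0824. Alb, the main plasma protein, fell by 0.18 and fell by 0.18. Its calls ended without the replicate block (0.405), lipid A (0.0533) or lipid B (0.0522), within a range of 0.000285 to 0.405, and with itaconate without the replicate block (0.471), the other groups in the model (0.165), itaconate C (0.0588) or lipid + itaconate D (0.0673), within a range of 0.000296 to 0.471. Ttr, a thyroxine carrier, fell by 0.20 and fell by 0.20. The first call ended without the replicate block (0.173) or untreated C (0.0685), within a range of 0.000864 to 0.173. The second ended without the replicate block (0.209), the other groups in the model (0.0584), itaconate C (0.0612) or lipid + itaconate C (0.051), within a range of 0.000813 to 0.209. G6pc, the last enzyme of glucose release, rose by 0.62 without itaconate, a call that ended without the replicate block (0.0837), untreated B (0.0867) or lipid C (0.0565), within a range of 2.57e-07 to 0.0867. Slc2a2, a glucose transporter named after its values were seen, rose by 0.40 there, a call that ended without the replicate block (0.342), untreated B (0.0611), untreated C (0.0655), lipid C (0.109), untreated D (0.0946) or lipid D (0.155), within a range of 4.87e-06 to 0.342. In itaconate-treated cells Igfbp1, a binding protein of insulin-like growth factors, rose by 0.25, lost without the replicate block (0.158), within a range of 1.83e-05 to 0.158. Of 10 C/EBP targets tested, 2 rose and 4 fell without itaconate, and 5 fell with it (6 without library B). C3 of the complement system fell by 0.26 and fell by 0.29. Haptoglobin (Hp) fell by 0.37 and fell by 0.32, but not without the replicate block (0.184, within a range of 4.6e-12 to 0.184, and 0.207, within 3.09e-09 to 0.207). Of 7 ONECUT1 targets tested, which include Foxa2 and Hnf4a, 1 rose and 2 fell, and with itaconate 2 rose and 2 fell (2 and 1 without library B). The 2 that rose in itaconate-treated cells were Foxa2 and Hnf4a, so this list partly restates the 8 genes. Its median for lipid without itaconate, given next, is the value of Hnf4a. The median log2 fold change for lipid without itaconate was 0.12 for the 8 genes, -0.05 for HNF4A targets, -0.18 for FOXA targets, -0.20 for C/EBP targets and 0.11 for ONECUT1 targets, against 0.00 for all genes tested. In itaconate-treated cells these medians were 0.29, -0.09, -0.18, -0.23 and 0.08 in that order, against 0.00.

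Of 88 genes tested in these lists and among the markers that follow, none was called by the interaction test in edgeR or by DESeq2, and 15 had an unadjusted p under 0.05, 17.0% where 8.60% of all genes did. DESeq2 gave an adjusted p to 6695 of the 11675 genes in the interaction, and a gene without one could not be called. A list gene called in cells of one state and not of the other was therefore not shown to differ between them. Of 38 such genes called for lipid without itaconate, 23 were called under every alternative and 11 lost the call when 1 library was left out. In itaconate-treated cells the counts were 45, 22 and 14. For itaconate alone they were 7, 0 and 6. The genes called were 43.2%, 51.1% and 7.95% of the 88, against 47.5%, 47.0% and 4.91% of all genes. In the averaged itaconate contrast 14 of the 88 were called, 15.9% against 12.3% of all genes, and 12 of the 14 were not called without the replicate block.

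Markers were checked beside these results. For mouse hepatocytes, the study's reporting summary describes enrichment by low-speed centrifugation and states a high purity, judged by eye from cell shape and size. All 12 hepatocyte markers were tested, and Alb was the most abundant gene, at 35227 ± 6197 CPM (SD, n = 4) in untreated cells. No marker rose with lipid by edgeR's quasi-likelihood test in either comparison, 4 fell without itaconate (33.3%, where 23.7% of all genes fell), and 8 fell with it (66.7%, where 23.5% of all genes fell). Without library B of the lipid + itaconate group 12 markers fell with it, where 2677 of 11683 genes fell. Fah of tyrosine breakdown fell by 0.32 and fell by 0.33. Hal of histidine breakdown fell by 0.60 and fell by 0.75, but not without the replicate block (0.106, within a range of 4.56e-10 to 0.106, and 0.0818, within 2.37e-16 to 0.0818). In itaconate-treated cells Cps1 of the urea cycle fell by 0.57 with lipid, lost without the replicate block (0.0961), within a range of 4.44e-24 to 0.0961. The list summed to 56454, 43408, 41060 and 42838 CPM in untreated libraries A to D and to 47478, 39534, 36242 and 38133 CPM in the lipid libraries. It summed to 56926, 47332, 41242 and 43176 CPM with itaconate and to 52795, 45600, 31797 and 37520 CPM with both. Each lipid sum was lower than its untreated letter, each lipid + itaconate sum lower than its itaconate letter, and the groups overlapped. No hepatocyte marker was at 0 counts, and the part of these markers in the results above was not tested.

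Prox1 is also a gene of lymphatic endothelium, and 2 of 4 markers of those cells were tested. Flt4, a receptor of lymphatic growth factors, was the most abundant, at 4.58 ± 0.912 CPM in untreated and 5.52 ± 1.34 CPM in lipid cells. The 4 markers together averaged 5.65 CPM in untreated, 4.16 in itaconate, 7.11 in lipid and 4.54 in lipid + itaconate cells, mostly Flt4. Lyve1 therefore lay near the filter of 1 CPM over all libraries and was tested in 21 of 22 alternatives. Its passing may rest on the lipid group, where the sums were highest, so its calls carry little weight. Lyve1, a hyaluronan receptor, rose with lipid without itaconate by a log2 fold change of 0.63 (adjusted p 0.038 by edgeR's quasi-likelihood test, higher in 4 of 4 letters). That call ended without the replicate block (0.186), the filter (0.0719), untreated A (0.0705), untreated B (0.0616), untreated C (0.0756), lipid C (0.134), untreated D (0.0985) or lipid D (0.108), and with DESeq2 (0.0688), within a range of 0.0145 to 0.186. Pdpn and Ccl21a were at 0 counts in every library with itaconate, lipid or both. Untreated libraries summed to 5.53, 6.63, 4.2 and 6.24 CPM and itaconate libraries to 4.53, 4.55, 3.69 and 3.89 CPM. Lipid libraries summed to 5.48, 8.99, 5.92 and 8.03 CPM and lipid + itaconate libraries to 4.01, 4.85, 4.47 and 4.83 CPM. Prox1 was higher with lipid in both comparisons, and these sums were lower with lipid in letter A of both and higher in letters B, C and D. With itaconate the sums were lower in all 4 letters, both without and with lipid. In the averaged itaconate contrast Lyve1 fell by 0.73 (adjusted p 0.0146) and Flt4 fell by 0.48 (adjusted p 0.0112). Both calls ended without the replicate block, at 0.136 for Lyve1 (range 0.00701 to 0.136) and 0.0567 for Flt4 (range 0.000105 to 0.0567). Prox1 had a log2 fold change of -0.18 in that contrast and was not called (adjusted p 0.368), except with no filter (0.00728) or without lipid + itaconate C (0.0317), within a range of 0.00728 to 0.641. The part of these markers in the Prox1 values was not tested.

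Macrophages also express Cebpa and Cebpb, and 5 of 8 of their markers were tested. Without itaconate lipid called 2 of the 5, 1 higher and 1 lower, where 47.5% of all genes were called. In itaconate-treated cells it called all 5, 1 higher and 4 lower, with or without library B of the lipid + itaconate group. There 47.0% of all genes were called, and 45.3% without library B. Cd68, a lysosomal protein, was the most abundant, at 196 ± 41.8 CPM in untreated cells. It rose with lipid by 0.43 and 0.58, the first lost without the replicate block (0.0726), within a range of 4.98e-15 to 0.0726. Adgre1, the F4/80 antigen, fell by 0.82 and fell by 1.52. In itaconate-treated cells Csf1r, a growth factor receptor, fell by 0.87 with lipid and Lyz2, a lysozyme, fell by 0.59. Clec4f, a lectin named after its values were seen, fell by 0.62 there. Its call ended without the replicate block (0.0632), the other groups in the model (0.0727), itaconate A (0.0719), lipid + itaconate A (0.055), itaconate C (0.117), lipid + itaconate C (0.152), itaconate D (0.0749) or lipid + itaconate D (0.0628), within a range of 0.00971 to 0.152. With itaconate alone Cd68 fell by 0.24, a call that ended without the replicate block (0.576) or itaconate C (0.0541), within a range of 0.000304 to 0.576. In the averaged itaconate contrast it fell by 0.17, lost without the replicate block (0.5), within a range of 0.000323 to 0.5. Lyz2 rose with itaconate alone by 0.50, a call that ended without the replicate block (0.279), itaconate A (0.0563), untreated B (0.0706), itaconate B (0.055), itaconate C (0.0673) or untreated D (0.0718), within a range of 0.00214 to 0.279. The list summed to 158, 198, 261 and 227 CPM in untreated libraries, and to 139.3, 179.9, 214 and 198 CPM with itaconate. It summed to 218, 268, 313 and 301 CPM with lipid and to 203, 225, 296 and 307 CPM with both. These sums mostly measure Cd68, which averaged 262 of 275 CPM with lipid and 248 of 258 CPM with both. No macrophage marker was at 0 counts in a whole group, and their part in the Cebpa and Cebpb values was not tested.

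Of 7 cholangiocyte markers 2 were tested, and both fell with lipid in both comparisons, where 23.7% and 23.5% of all genes fell. Spp1 was the most abundant at 722 ± 248 CPM in untreated cells and fell by 0.97 and by 0.68, the latter lost without the replicate block (0.0809), within a range of 1.1e-35 to 0.0809. Sox9, a factor of bile duct development, fell by 0.37 and by 0.37. Cftr was at 0 in all 16 libraries, and Krt7 in the itaconate and lipid groups. Of 5 liver endothelial markers 4 were tested, and Cdh5 was the most abundant at 5.70 ± 1.87 CPM. Stab2, a scavenger receptor, fell with lipid by 0.55 without itaconate, a call that ended without the replicate block (0.0704), untreated C (0.12), lipid C (0.0577), untreated D (0.0708) or lipid D (0.143), within a range of 0.0187 to 0.143. In itaconate-treated cells it fell by 0.50, a call that ended without the replicate block (0.09), the other groups in the model (0.0704), lipid A (0.0539), itaconate A (0.0839), lipid + itaconate A (0.0562), untreated B (0.058), itaconate B (0.124), lipid + itaconate B (0.174), lipid C (0.0548), itaconate C (0.0687), lipid + itaconate C (0.13), untreated D (0.0603) or itaconate D (0.0793), and with filterByExpr (0.0513), within a range of 0.0133 to 0.174. The other 3 were not called for lipid: Pecam1 had log2 fold changes of 0.27 and 0.02, Cdh5 of 0.19 and 0.19, and Kdr of -0.01 and 0.11. The median of the 4 was 0.09 without itaconate and 0.07 with it. The list summed to 10.4, 19.9, 13.2 and 15.4 CPM in untreated and 11.9, 20.3, 15.0 and 16.7 CPM in lipid libraries, higher with lipid in each letter. It summed to 10.6, 16.6, 11.5 and 14.1 CPM with itaconate and 10.4, 19.3, 10.7 and 15.8 CPM with both. In the averaged itaconate contrast Kdr, named after its values were seen, fell by 0.54, lost without the replicate block (0.167), within a range of 0.0126 to 0.167. The part of these markers in the results was not tested. Of 6 stellate markers Reln alone was tested, at 21.2 ± 0.957 CPM in untreated cells, and in itaconate-treated cells it fell by 0.23 with lipid, a call that ended without the replicate block (0.0824), the other groups in the model (0.0851), itaconate B (0.0916), lipid + itaconate B (0.0793), itaconate C (0.112), lipid + itaconate C (0.174), untreated D (0.0507), lipid D (0.0505), itaconate D (0.0885) or lipid + itaconate D (0.0734), within a range of 0.0027 to 0.174. Of 5 fetal hepatocyte markers, none passed the filter, with Afp the most abundant at 0.810 ± 0.238 CPM in untreated cells and Gpc3 at 0 in all 16 libraries.

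The genes with the pattern most like each of the 8 were ranked by Pearson correlation of log2 CPM over the 16 libraries after letter means were removed, over genes that averaged 5 CPM or more. This describes likeness across 16 libraries that share treatments. Cebpa was most like Homer2 (0.971), Msantd4 (0.967) and Rilpl1 (0.965), and Foxa3 was most like Bivm (0.969), Reep4 (0.959) and Rad52 (0.957). Prox1 was nearest to Abhd4 (0.964), Tstd3 (0.963) and Il17rc (0.955), and Cebpb to Nrn1 (0.944), Max (0.936) and Stat5a (0.935). For Hnf4a the nearest were Lzts3 (0.948), Trp53inp1 (0.916) and Arl16 (0.911), and for Foxa2 they were Mrpl11 (0.937), Tmem237 (0.927) and Polr2k (0.923). Foxa1 had the weakest likeness, with Gm21926 (0.747), Atpif1 (0.726) and Cplane1 (0.711). Onecut1, at low counts, had Trim45 (0.857), Ctnnal1 (0.833) and Pom121 (0.807). Among the 8, Foxa3 and Cebpa had a correlation of 0.849, Foxa3 and Prox1 of 0.846, Hnf4a and Foxa2 of 0.816, and Cebpb and Prox1 of -0.795.

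Promoters are shown for Cebpa, Foxa3 and Prox1, the genes that rose with lipid in both comparisons. RefSeq sequence of GRCm38.p6 was matched for all 8 genes, 12 promoters in all, and the 250 bases before each start were searched on both strands for 7 short motifs, chosen after the expression values were seen. TATAAA was found in 4 of 12 promoters, including all 3 shown, and in 12.4% of 32851 promoters. The other promoter of Prox1, which is not shown, had no match to this motif. TTGCG, from the C/EBP site, was found in 3 of 12 (14.5% of all), including Cebpa and Foxa3. The others were ATTAAC (2 of 12, 6.43% of all), TGTTTAC for forkhead factors (1 of 12, 3.17%), ATTGAT for ONECUT (2 of 12, 6.72%), TGACG from the cyclic AMP response element (2 of 12, 17.8%), and CAAAG for HNF4 (4 of 12, 48.6%). TATAAA began 30 bases before the start in Cebpa, 36 in Foxa3 and, on the other strand, 34 in Prox1. In Foxa1 the TGTTTAC match shares bases with matches of CAAAG, and in Foxa2 ATTAAC does. A match is a description of these letters and no measure of binding. Capitals mark motif matches, and each window lies upstream of the annotated exons of its gene: Cebpa on the plus strand at chr7:35119043-35119292, Foxa3 on the minus strand at chr7:19023540-19023789 and Prox1 on the minus strand at chr1:190170828-190171077.
Cebpa: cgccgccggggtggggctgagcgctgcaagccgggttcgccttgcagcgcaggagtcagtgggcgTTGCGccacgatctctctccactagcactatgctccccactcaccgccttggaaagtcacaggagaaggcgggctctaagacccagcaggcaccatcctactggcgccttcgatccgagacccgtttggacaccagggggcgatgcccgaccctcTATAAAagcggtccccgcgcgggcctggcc
Foxa3: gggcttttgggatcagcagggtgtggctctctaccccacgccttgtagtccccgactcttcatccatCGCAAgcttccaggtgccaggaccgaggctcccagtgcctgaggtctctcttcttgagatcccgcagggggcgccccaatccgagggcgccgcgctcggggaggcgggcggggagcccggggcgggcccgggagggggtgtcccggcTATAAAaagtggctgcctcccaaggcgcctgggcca
Prox1: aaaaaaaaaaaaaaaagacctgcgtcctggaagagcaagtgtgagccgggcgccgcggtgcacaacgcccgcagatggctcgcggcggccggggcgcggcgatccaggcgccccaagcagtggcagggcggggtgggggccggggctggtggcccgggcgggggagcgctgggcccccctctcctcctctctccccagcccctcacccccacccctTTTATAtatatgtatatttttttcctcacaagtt

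Some values carry a limit of counting. Cebpb shares 312 exon bases with Tmem189 on the opposite strand, which had 1180 to 3570 counts per library, and Onecut1 shares 2171 with Gm20649 on the same strand, which had at most 17.56 counts. Prox1 shares 133 exon bases with Prox1os and Cebpa 51 with Gm45091, both antisense. The strand setting of the counting is not given in the sources used here.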

How the data were processed

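Per the study's methods and the submitters' processing notes, the authors trimmed reads of stranded mRNA libraries with Cutadapt 1.18, aligned them to mm10 with STAR 2.7.0f and deposited RSEM 1.3.1 expected counts per gene. Of these values 5.41% were not whole, and all were rounded. The 11675 genes that averaged 1 CPM or more were scaled by TMM and fitted with edgeR 4.0.16 (quasi-likelihood test, R 4.3.3) in 1 model of treatment and replicate letter, with Benjamini-Hochberg adjustment over all genes tested. CPM uses the same scaling. Libraries of different groups with the same letter had correlated deviations from group means (24 pairs, 0.144 to 0.469, median 0.263). Other pairs ran from -0.436 to 0.178 with a median of -0.114 (72 pairs), so the ranges overlapped. DESeq2 1.42.0, RLE scaling, other filters, no block, the compared libraries alone and each library left out were alternatives. The code was tested on simulated data. Gene positions and lengths came from GENCODE release 21 for mouse, and Ddit3, with 2 rows, was read from the one with more counts. The genes, gene lists and tests were chosen with earlier results of these data known, and the 2 averaged contrasts and the 7 motifs after the values were seen. Named are the 8 genes, their measured relatives, up to 4 genes per other list and planned comparison with the smallest p among those called, the most abundant and zero markers, and the 3 genes most like each of the 8.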

Additional observations from a re-analysis of the deposited data

Results flagged for a closer look

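Hnf4a in untreated library A, at 190.1 CPM, lay far below the other 3 untreated libraries, which gave 219.6 to 225 CPM. Its gap to the nearest library was 0.856 of the group's range. Of 32 sets of 4 libraries looked at (8 genes in 4 groups), this was the 1 set with such a gap, and chance alone gives about 1 in 20 sets, or 1.6 of 32. The gap takes no account of the replicate letters. Hnf4a was also lowest in library A of the itaconate group (194 CPM) and of the lipid + itaconate group (228 CPM), and in the lipid group it was lowest in library C (208 CPM).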

How the results depend on the processing

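The counts of the 8 genes called depended on the replicate block and on single libraries, and the cause was not tested. Without the replicate block (a model that is not paired by letter) the count was 2 for lipid vs untreated, 4 for lipid + itaconate vs itaconate, 0 for averaged itaconate and 6 for averaged lipid, where 35.5%, 34.2%, 1.88% and 52.1% of all genes were called. Over the models with 1 library left out, the count ran from 0 to 1 for itaconate vs untreated, 0 to 1 for lipid + itaconate vs lipid, 2 to 4 for lipid vs untreated, 4 to 6 for lipid + itaconate vs itaconate and 2 to 3 for averaged itaconate. The shares of all genes called in these models were 1.28% to 8.96%, 0.505% to 7.61%, 40.4% to 51.4%, 38.8% to 47.6% and 7.67% to 21.6% in that order. With no filter the count of the 8 was 3 for itaconate vs untreated, 1 for lipid + itaconate vs lipid, 1 for the interaction and 3 for averaged itaconate, where 4.34%, 2.88%, 0.918% and 7.22% of all genes were called. It was also 3 for itaconate vs untreated with the compared groups alone in the model (16.0% of all genes), and by DESeq2 it was 1 in each itaconate comparison. Over all genes, itaconate vs untreated called 573, but 23 without the block, 1091 with no filter, 1865 with the compared groups alone and 149 to 1047 with 1 library left out. For lipid + itaconate vs lipid 301 became 9, 725, 13 and 59 to 889, and 509 by DESeq2. The interaction called 1 gene, 0 without the block, 2 with RLE scaling or filterByExpr, 231 with no filter, 36 by DESeq2 and 0 to 8 with 1 library left out. Averaged itaconate called 1432, 219 without the block and 895 to 2528 with 1 library left out. For the 8 genes over all comparisons and alternatives, 1111 results kept direction and side of the threshold, 23 lost the call, 16 gained it and 55 changed sign, of which none was called (lowest adjusted p 0.306). Sign changes with 1 library left out gave log2 ranges of -0.042 to 0.0205 (Hnf4a), -0.0799 to 0.0835 (Foxa1) and -0.0354 to 0.10 (Foxa3) for itaconate vs untreated. For lipid + itaconate vs lipid they were -0.0172 to 0.17 (Foxa2), -0.16 to 0.47 (Onecut1) and -0.24 to 0.18 (Prox1). They were -0.0406 to 0.18 for Foxa1 in lipid vs untreated and -0.31 to 0.16 for Onecut1 in lipid + itaconate vs itaconate. For the interaction they were -0.0877 to 0.0218 (Cebpa) and -0.0575 to 0.0849 (Cebpb), for averaged itaconate -0.26 to 0.065 (Onecut1) and for averaged lipid -0.0696 to 0.0439 (Foxa1). Other sign changes were Hnf4a with no filter for itaconate vs untreated (0.00245), and Prox1 for lipid + itaconate vs lipid without the block (-0.0363) and with the compared groups alone (-0.00109). Onecut1 in lipid + itaconate vs itaconate was -0.000179 without the block, -0.00841 with RLE scaling, -0.0212 with the compared groups alone and -0.00718 by DESeq2. The Cebpb interaction was -0.00397 with RLE scaling, -0.00597 with no filter, -0.00678 with filterByExpr and -0.00393 by DESeq2. DESeq2 gave no adjusted p for Onecut1 in lipid + itaconate vs lipid or for Onecut1 and Foxa1 in the interaction. At 15 to 53 counts per library, depth limits Onecut1 most.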
